A study of Rattus norvegicus with 48 samples.

Results

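The ulna bones of diabetic and lean rats that both received parathyroid hormone (PTH) were compared by small RNA sequencing, with 4 ZDF libraries and 4 WT libraries among the 48 libraries of the series. Libraries were chosen by their labels, which give tissue (ulna bone), treatment (PTH), duration (12 weeks) and genotype. ZDF stands for male Zucker Diabetic Fatty rats homozygous for the fa mutation of the leptin receptor, and WT for male Zucker lean rats (ZDF +/+), the non-diabetic control. A defect had been made in the femur of every rat and a chow high in fat and carbohydrate was given to both genotypes, so the bones differ by genotype with surgery, diet and hormone held the same. Obesity, hyperglycemia and impaired leptin signaling come together in this model and cannot be told apart in these groups. Frozen ulna was ground and lysed, and the sources used here do not say whether marrow or adhering muscle had been removed, so RNA of these tissues may be included. In such bulk tissue, fewer cells of a type and less of a miRNA per cell cannot be told apart. The labels give only serial sample names. The p-values measure the spread between these samples, which the main test of the PTH bones pooled over all miRNAs.

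PTH given intermittently is an anabolic bone treatment that acts on osteoblasts and osteocytes through the PTH receptor, raises bone formation and lowers sclerostin. MiRNAs are short RNAs that pair with messenger RNAs mainly through the seed, bases 2 to 8 from the 5′ end, and reduce their translation and stability. MiRNAs that share a seed form a family with overlapping targets, and miRNAs from neighboring hairpins are often transcribed together.

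Of the 261 miRNAs tested, 14 differed between ZDF and WT bones at a false discovery rate (FDR) below 0.2, which was 5.36% of those tested. Of these, 10 were upregulated in ZDF bone (3.83%) and 4 downregulated (1.53%). The upregulated miRNAs fell into 3 named groups and one further miRNA: let-7i-5p, let-7g-5p and miR-98-5p of the let-7 family, the muscle miRNAs miR-133a-3p and miR-206-3p, miR-382-5p, miR-410-3p, miR-487b-3p and miR-541-5p of the imprinted Dlk1-Dio3 cluster, and miR-196a-5p of the Hox clusters. The downregulated miRNAs were both arms of the leukocyte hairpin miR-142, miR-29a-5p and miR-3084a-3p. The median log2 fold change (log2FC) of all tested miRNAs was 0.08, with 141 values above 0 and 120 below. The number past the threshold was 29 without WT2, 35 without WT4 and 58 without ZDF4, and 8, 8 and 9 without ZDF1, ZDF2 and WT1 (ZDF1 to ZDF4 and WT1 to WT4 name the libraries here). With the size factors of DESeq2 in edgeR it was 30 (19 upregulated, 11 downregulated), and with DESeq2 itself, where the median log2FC of all miRNAs was lower by 0.40, it was 25 (12 and 13).

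The sequences below are those of the 14 miRNAs and of the closest relatives they are compared with, from RefSeq (assembly GRCr8). All 14 were matched by name, as were 238 of the 261 tested miRNAs. Capitals mark the seed. The let-7 members are shown because their seed is one and the same while their 3′ parts differ. Let-7a-5p and let-7f-5p are among the relatives that did not pass the threshold, and the others that did not pass are not shown:
let-7i-5p: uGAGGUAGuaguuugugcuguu
let-7g-5p: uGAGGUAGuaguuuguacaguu
miR-98-5p: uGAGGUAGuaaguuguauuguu
let-7f-5p: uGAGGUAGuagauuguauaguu
let-7a-5p: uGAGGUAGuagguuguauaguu
Counted from 1 at the 5′ end and with let-7a-5p as reference, let-7f-5p differs by G12A, let-7g-5p by G12U and U18C, let-7i-5p by G12U, A17G, U18C and A19U, and miR-98-5p by G11A and A19U. From let-7i-5p to let-7g-5p the differences are G17A and U19A. The rat let-7i-5p lies at chr7:60527935-60527956 (minus strand), let-7g-5p at chr8:115701026-115701047 (plus strand) within the annotated span of Wdr82, and miR-98-5p at chrX:24460663-24460684 (plus strand) within Huwe1, 611 bases from a let-7f hairpin's mature sequence.

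The muscle miRNAs are shown beside the relative that shares the seed. MiR-133a-3p and miR-133b-3p differ by the last base only (G22A), and miR-1-3p and miR-206-3p by A11G, A21G and U22G:
miR-133a-3p: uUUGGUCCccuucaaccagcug
miR-133b-3p: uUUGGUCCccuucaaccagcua
miR-206-3p: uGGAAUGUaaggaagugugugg
miR-1-3p: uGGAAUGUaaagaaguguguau
The 4 miRNAs of the Dlk1-Dio3 cluster are shown because none shares its seed with another tested miRNA, although their loci are neighbors. They lie on chromosome 6 between 134562939 and 134579828, a stretch of 16890 bases, and the 30 listed members span 265085 bases:
miR-487b-3p: aAUCGUACagggucauccacuu
miR-382-5p: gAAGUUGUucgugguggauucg
miR-541-5p: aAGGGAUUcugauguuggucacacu
miR-410-3p: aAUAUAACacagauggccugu
The remaining miRNAs are miR-196a-5p, whose seed is that of miR-196b-5p and miR-196c-5p, and the 4 downregulated miRNAs, of which both arms of miR-142 lie on chromosome 10 within Tspoap1:
miR-196a-5p: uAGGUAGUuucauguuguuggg
miR-142-5p: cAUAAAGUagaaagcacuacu
miR-142-3p: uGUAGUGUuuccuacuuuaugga
miR-29a-5p: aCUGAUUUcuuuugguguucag
miR-3084a-3p: uUCUGCCAguccccuucagaca

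The ZDF libraries held 191926 to 971036 reads on rat miRNAs and the WT libraries 41627 to 282285. WT1 and WT2 were the shallowest, at 54497 and 41627 reads. The difference in depth was 1.89 on the log2 scale (exact permutation p = 0.0857, two-sided, 4 against 4 libraries, where 0.0286 is the smallest p possible). Without WT4, the deepest WT library, it was 2.39 (exact p = 0.0286). Without any other single library the exact permutation p was 0.0857 to 0.2. MiRNA reads made up 6.79% to 12.6% of a ZDF library and 1.58% to 7.23% of a WT library. WT1 and WT2 also stood apart in composition: miR-143-3p, abundant in smooth muscle and stroma, was at 230319 and 315023 CPM there (reads scaled to a common miRNA total and TMM-normalized), against 65248 to 115899 CPM in the other 6 libraries. Correlations of log2 CPM between pairs of WT libraries ranged from 0.769 to 0.976, those between ZDF libraries from 0.928 to 0.968, and those between genotypes from 0.769 to 0.971. The comparison was therefore also made without both WT1 and WT2 (chosen after the depth was seen) and with log2 depth as covariate, and the part of depth in the results was not tested further. Without WT1 and WT2, 74 miRNAs were past the threshold (46 upregulated, 28 downregulated), and with the covariate 75 (41 and 34).

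**Figure D1:**
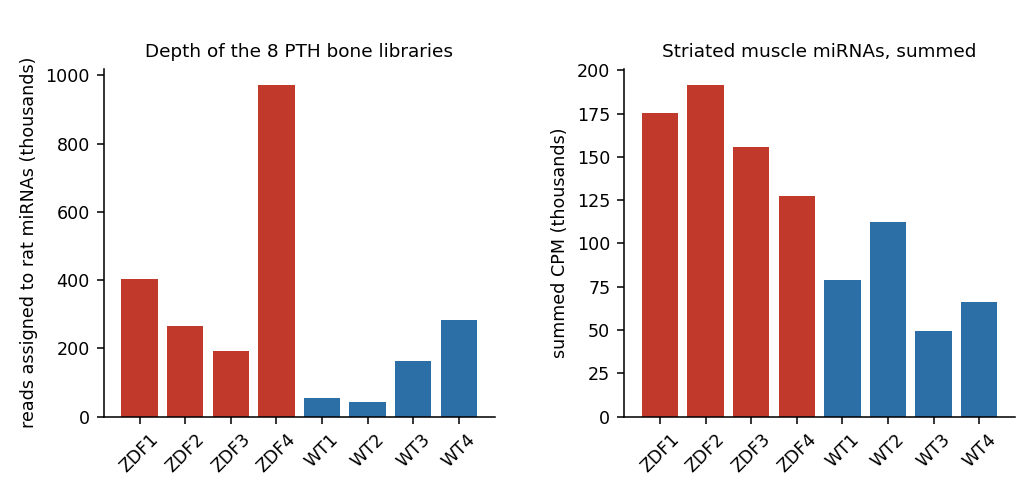
Reads assigned to rat miRNAs (left panel) and summed CPM of the striated muscle miRNAs (right panel) in each of the 8 PTH bone libraries, ZDF in red and WT in blue. WT1 and WT2 have the fewest reads (54497 and 41627), and the 4 ZDF libraries have the 4 highest muscle sums.

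The let-7 family, whose members are broadly expressed and are known for repressing growth and stem cell programs such as that of Lin28, was upregulated in ZDF bone through 3 of its 9 tested members. Let-7i-5p was read at 31326, 54602, 49953 and 46944 CPM in ZDF1 to ZDF4 and at 13518, 7520, 13290 and 15414 CPM in WT1 to WT4. The lowest ZDF library was above the highest WT library. The means were 45706 ± 10091 CPM (SD, n = 4) and 12436 ± 3413 CPM, with a log2FC of 1.88 (SE 0.43, FDR = 0.00207, edgeR quasi-likelihood test with Benjamini-Hochberg adjustment, as for every FDR below). MiR-98-5p was at 1913, 2656, 2391 and 1547 CPM in ZDF bones and at 784, 551, 499 and 529 CPM in WT bones, again without overlap. Its log2FC was 1.86 (SE 0.50, FDR = 0.0157). Let-7g-5p was at 1314, 2335, 2473 and 4119 CPM in ZDF bones and at 862, 661, 895 and 764 CPM in WT bones, where the values were close together and all below those of ZDF. Its log2FC was 1.68 (SE 0.49, FDR = 0.0337). The 3 members stayed past the threshold without any single library and without both WT1 and WT2, at log2FC of 1.67, 2.05 and 1.63 for let-7i-5p, miR-98-5p and let-7g-5p. In the fit with log2 depth as covariate the values were 1.69, 2.22 and 1.33, with FDR = 0.130 for let-7g-5p.

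All 9 tested members of the family had a positive log2FC, from 0.32 (let-7d-5p) to 1.88, with a median of 0.93 beside 0.08 over all tested miRNAs. Let-7f-5p, the second most abundant member, did not pass the threshold (log2FC 1.05, FDR = 0.220), although its ZDF values of 18975, 26421, 34711 and 24303 CPM were all above its WT values of 11304, 9585, 13687 and 15665 CPM. Let-7a-5p was at 1275 to 4078 CPM in ZDF and 1074 to 2885 CPM in WT bones, and the groups overlapped (log2FC 0.58, FDR = 0.570). Summed over the family, CPM ranged from 60004 to 108136 in ZDF and from 22641 to 49275 in WT bones. The number of members past the threshold was 3 to 5 over 22 other settings of the analysis and 4 without both WT1 and WT2.

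The composition of the family differed in the shares of let-7i-5p (higher in ZDF) and let-7a-5p (lower in ZDF). The shares of all other members overlapped between the genotypes, and the mean share of let-7f-5p was 28.6% in ZDF and 35.6% in WT libraries. Let-7i-5p made up 52.2%, 54.0%, 46.2% and 47.7% of the family's CPM in ZDF1 to ZDF4 and 43.9%, 33.2%, 30.8% and 31.3% in WT1 to WT4, and the groups did not overlap. Per let-7a-5p read there were 24.6, 19.4, 12.5 and 11.5 let-7i-5p reads in ZDF libraries and 9.45, 7.00, 4.61 and 5.73 in WT libraries, a ratio that no scaling between libraries can change. The values of ratios were looked at after the fold changes were known and are a description. By their RefSeq sequences, the 4 members whose bases 11 and 12 are not GG (let-7f-5p, let-7g-5p, let-7i-5p and miR-98-5p) had log2FC of 1.05 to 1.88. The 5 with GG there (let-7a-5p to let-7e-5p, of which only let-7a-5p is shown above) had 0.32 to 0.93. This grouping was made after the values were seen, and the deposited counts allowed mismatches in mapping, so reads could be shared between members that differ by few bases and the split between them is uncertain.

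**Figure D2:**
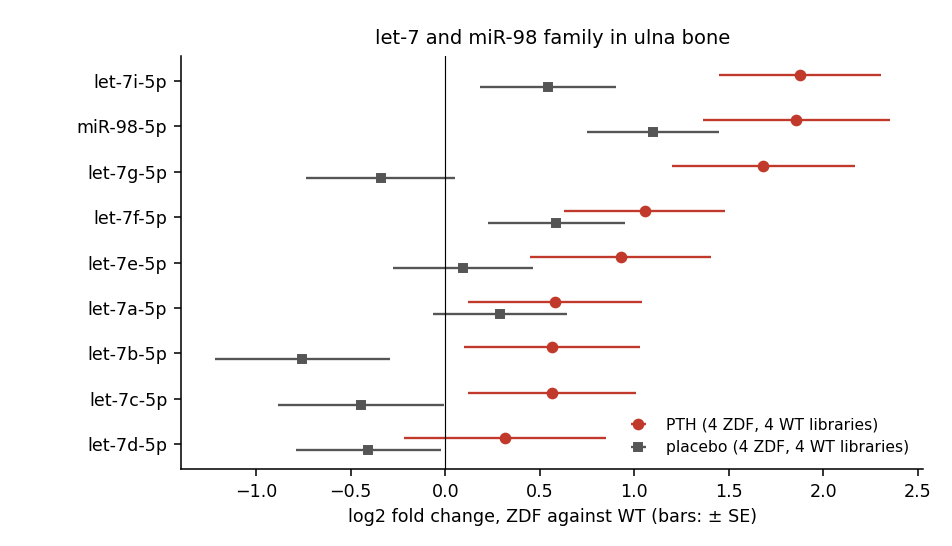
Log2 fold change of ZDF against WT bone (x axis, bars ± SE) for the 9 members of the let-7 and miR-98 family under PTH (red circles) and under placebo (gray squares), 4 ZDF and 4 WT libraries in each. All 9 PTH values are above 0 (0.32 to 1.88), and 5 of the 9 placebo values are.

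The most abundant of the 14 miRNAs was miR-133a-3p, which is made in skeletal and heart muscle and is also known to restrain Runx2 in osteoblasts. It was at 160394, 125345, 132221 and 114463 CPM in ZDF bones and at 65044, 49855, 41732 and 58277 CPM in WT bones. No ZDF value was near a WT value, and the means were 133106 ± 19607 CPM (SD, n = 4) and 53727 ± 10127 CPM. The log2FC was 1.31 (SE 0.40, FDR = 0.0471), and it stayed past the threshold without any single library, without both WT1 and WT2 (1.41) and with depth as covariate (1.40). MiR-206-3p, a skeletal muscle miRNA that relates to miR-1, was at 654, 3047, 1033 and 613 CPM in ZDF and at 431, 992, 188 and 403 CPM in WT bones. One WT library lay within the ZDF range. Its log2FC of 1.46 (SE 0.50, FDR = 0.0940) rested on ZDF2, without which it was 0.66 (FDR = 0.779), and it also missed the threshold without WT1 (1.41, FDR = 0.288) or WT3 (1.31, FDR = 0.233). Without both WT1 and WT2 it was 2.16 (FDR = 0.000137), and with depth as covariate 2.45 (FDR = 0.00109).

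The other striated muscle miRNAs did not pass the threshold. Of 10 listed, 8 were tested, 2 were upregulated and none downregulated, with a median log2FC of 0.45. Over 22 other settings 1 to 5 passed, and 5 did without both WT1 and WT2. MiR-1-3p, the partner of miR-133a in both heart and skeletal muscle and encoded 2453 bases from it, was at 3069, 16813, 4522 and 2855 CPM in ZDF and at 1940, 9833, 1414 and 1886 CPM in WT bones (log2FC 0.87, FDR = 0.328). ZDF2 and WT2 were the highest of their groups, and without WT2 the log2FC was 1.97 (FDR = 0.000687). It also passed without both WT1 and WT2 (2.04, FDR = 3.45e-05), without ZDF1 (1.27, FDR = 0.133), without ZDF4 (1.07, FDR = 0.175) and with depth as covariate (2.47, FDR = 0.000267). MiR-133b-3p was at 955 to 1654 CPM in ZDF and 962 to 2534 CPM in WT bones (log2FC −0.20, FDR = 0.861), miR-1b had a log2FC of 0.21 and the slow-fiber and heart miRNA miR-499-5p one of −0.80. There were 129, 131, 90.3 and 69.2 reads of miR-133a-3p per read of miR-133b-3p in ZDF libraries and 39.5, 19.7, 43.4 and 55.4 in WT libraries, without overlap, while the sequences of these miRNAs differ at 1 base and their reads may have been shared.

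Summed muscle CPM was 175094, 191401, 155562 and 127458 in ZDF and 78974, 112380, 49461 and 66177 in WT bones. Every ZDF bone was above every WT bone. MiR-133a-3p made up 44.4% to 91.6% of this sum, and without it the sums overlapped (12995 to 66056 CPM against 7729 to 62525 CPM). MiR-208b-3p, a striated muscle miRNA whose locus lies within the annotated span of Myh7, had a log2FC of 0.33. The part of adhering muscle in the values of miR-133a-3p and miR-206-3p was not tested.

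**Figure D3:**
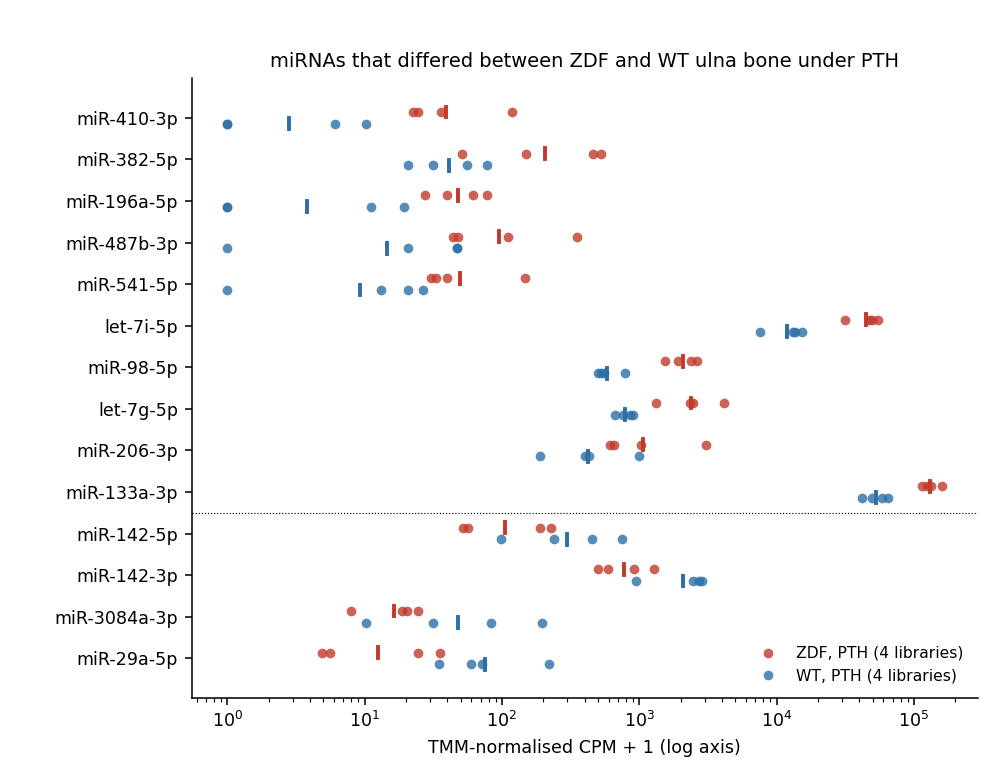
TMM-normalized CPM + 1 (x axis, log scale) of the 14 miRNAs past FDR < 0.2 in each ZDF (red) and WT (blue) PTH bone library, with a tick at the mean on the log scale, 4 libraries a group. The groups of let-7i-5p, let-7g-5p, miR-98-5p, miR-133a-3p, miR-410-3p, miR-541-5p and miR-196a-5p do not overlap, and those of the other 7 do.

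The Dlk1-Dio3 cluster is a large imprinted group of miRNAs, transcribed from the maternal chromosome and known for expression in embryonic tissues, brain and stem cells. Of its 30 listed members, 29 had a read, 10 were tested, 4 were upregulated in ZDF bone and none was downregulated. The median log2FC of the tested members was 1.16, 8 being above 0, and values ran from −1.37 to 2.96. MiR-410-3p (means of 49.6 CPM in ZDF and 3.56 CPM in WT) and miR-541-5p (61.7 and 14.3 CPM) met the filter of a mean of 21.0 CPM through the ZDF group alone, so this count and median are partly set by the filter. MiR-382-5p was at 526, 462, 148 and 50.2 CPM in ZDF and at 19.6, 55.1, 30.5 and 76.4 CPM in WT bones (log2FC 2.59, SE 0.60, FDR = 0.00207). ZDF4 was below 2 of the WT bones, and the exact permutation p was 0.0857 (4 against 4). MiR-410-3p was at 118, 35.2, 23.6 and 21.3 CPM in ZDF bones, and WT1 to WT4 held 0, 0, 1 and 3 reads of it (log2FC 2.96, SE 0.87, FDR = 0.0337).

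The other members upregulated were also of low abundance. MiR-487b-3p was at 350, 110, 47.2 and 42.7 CPM in ZDF and at 19.6, 0, 45.8 and 45.8 CPM in WT bones, which overlapped (log2FC 1.94, SE 0.62, FDR = 0.0639). MiR-541-5p was at 146, 39.1, 29.5 and 32.0 CPM in ZDF and at 19.6, 0, 25.4 and 12.2 CPM in WT bones, where the highest WT value was just under the lowest ZDF value (log2FC 1.91, SE 0.74, FDR = 0.192). ZDF1 was the highest library for all 4 miRNAs, and without it none was past the threshold, with log2FC of 2.31 (miR-382-5p), 2.08 (miR-410-3p), 0.97 (miR-487b-3p) and 1.08 (miR-541-5p); the filter on abundance then kept 89 miRNAs and left these out. MiR-541-5p also missed it without ZDF2 (2.07, FDR = 0.439), WT1 (1.95, FDR = 0.288) or WT4 (1.67, FDR = 0.293). Over 22 other settings, 0 to 10 members of the cluster were past the threshold, 7 of them without both WT1 and WT2. In the other direction, miR-376a-3p was at 71.9, 27.4, 5.90 and 55.5 CPM in ZDF and at 157, 110, 107 and 88.6 CPM in WT bones without overlap (log2FC −1.37, FDR = 0.273, and −1.16 with FDR = 0.153 without both WT1 and WT2; FDR = 0.198, 0.143 and 0.196 without WT2, ZDF4 or WT4), and the sums over the cluster overlapped (1041 to 4328 CPM against 1042 to 1653 CPM).

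MiR-196a-5p, encoded in the Hox gene clusters and known to target Hox messengers, was at 60.3, 39.1, 76.7 and 26.7 CPM in ZDF and at 0, 0, 10.2 and 18.3 CPM in WT bones. The groups did not overlap, but the WT libraries together held 8 reads of it (0, 0, 2 and 6). Its log2FC was 2.02 (SE 0.78, FDR = 0.192), and it missed the threshold without ZDF2 (2.13, FDR = 0.439), ZDF3 (1.80, FDR = 0.356), WT1 (1.85, FDR = 0.291) or WT3 (2.03, FDR = 0.280). Without ZDF1 (log2FC 1.93) the abundance filter left it out, so it was not tested. It was 1 of the 5 Hox-cluster miRNAs tested, whose median log2FC was 0.04, and 0 to 3 of which passed over 22 other settings. With means of 50.7 CPM in ZDF and 7.13 CPM in WT bones, it met the abundance filter through the ZDF group alone. Of the 14 miRNAs, 5 had under 30 reads summed over the 4 WT libraries.

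MiR-142, a hairpin expressed in blood cell lineages, was lower in ZDF bone in both arms. MiR-142-3p was at 593, 497, 915 and 1290 CPM in ZDF and at 2743, 2479, 2875 and 953 CPM in WT bones. WT1, WT2 and WT3 were above all ZDF bones, while WT4 was within their range. The log2FC was −1.45 (SE 0.48, FDR = 0.0750) and −1.21 (FDR = 0.0198) without both WT1 and WT2, but it missed the threshold without ZDF2 (−1.27, FDR = 0.728), ZDF3 (−1.50, FDR = 0.223) or WT1 (−1.34, FDR = 0.257). MiR-142-5p was at 55.6, 50.9, 189 and 225 CPM in ZDF and at 451, 744, 239 and 97.8 CPM in WT bones (log2FC −1.45, SE 0.53, FDR = 0.155). Its highest values were those of WT1 and WT2, without which the log2FC was −0.34 (FDR = 0.729). It also missed the threshold without WT1 (−1.32, FDR = 0.291), WT2 (−0.90, FDR = 0.360) or ZDF2 (−1.20, FDR = 0.728). Without ZDF1 (log2FC −1.18) the filter on abundance left it out, so it was not tested.

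None of the other leukocyte miRNAs passed the threshold with all 8 libraries. Of 8 tested, 2 were downregulated and none upregulated (0 to 3 in all over 22 other settings), with a median log2FC of 0.06 and overlapping sums (5719 to 9600 CPM in ZDF, 5320 to 10423 CPM in WT). The myeloid miRNA miR-223-3p was at 1530 to 2929 CPM in ZDF and 1570 to 3058 CPM in WT bones (log2FC −0.19, FDR = 0.861), and the lymphocyte miRNA miR-150-5p had a log2FC of 0.90 (FDR = 0.328). MiR-150-5p was at 1.43 (FDR = 0.0126) without both WT1 and WT2, and there 2 leukocyte miRNAs were upregulated and 1 downregulated. Per read of miR-223-3p there were 0.388, 0.299, 0.478 and 0.440 reads of miR-142-3p in ZDF libraries and 1.23, 1.58, 0.940 and 0.418 in WT libraries, so that WT4 again lay among the ZDF libraries.

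MiR-29a-5p, the less abundant arm of a hairpin whose 3p arm represses collagen and other matrix genes, was at 4.64, 3.91, 23.6 and 34.2 CPM in ZDF and at 58.8, 220, 71.2 and 33.6 CPM in WT bones. WT4 fell just below ZDF4. Its log2FC was −2.16 (SE 0.68, FDR = 0.0556), and it missed the threshold without ZDF2 (−1.90, FDR = 0.439) or WT2 (−1.55, FDR = 0.205). Without ZDF1 (log2FC −1.79) the abundance filter left it out, so it was not tested. Without both WT1 and WT2 the log2FC was −1.50 (FDR = 0.109). The 3p arm was far more abundant, at 13793 to 46728 CPM in ZDF and 12973 to 38837 CPM in WT bones, with a log2FC of −0.24 (FDR = 0.826). All 4 tested members of the miR-29 family had negative values, with a median of −0.87, and 0 to 3 passed over 22 other settings. MiR-3084a-3p was at 6.95, 23.5, 17.7 and 19.2 CPM in ZDF and at 196, 82.6, 30.5 and 9.17 CPM in WT bones (log2FC −1.86, SE 0.72, FDR = 0.192). Its highest values were in WT1 and WT2 too, and without both the log2FC was −0.16. MiR-29a-5p (means of 16.6 and 96.0 CPM) and miR-3084a-3p (16.8 and 79.6 CPM) met the abundance filter through the WT group alone. MiR-3084a-3p missed the threshold without WT1 alone (−0.71, FDR = 0.763) and without ZDF2 (−2.05, FDR = 0.439) or ZDF3 (−1.91, FDR = 0.257). Without ZDF1 (log2FC −1.48) the abundance filter left it out as well.

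**Figure D4:**
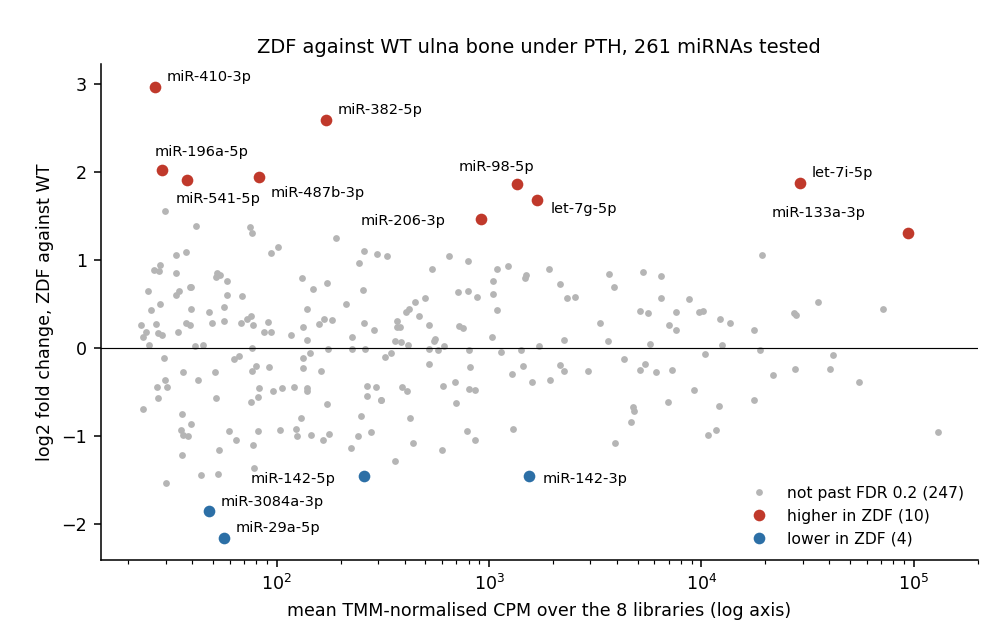
Log2 fold change of ZDF against WT bone under PTH (y axis) against mean TMM-normalized CPM over the 8 libraries (x axis, log scale) for the 261 tested miRNAs, with the 10 upregulated (red) and 4 downregulated (blue) miRNAs named. Let-7i-5p and miR-133a-3p lie among the most abundant miRNAs, and the 4 Dlk1-Dio3 miRNAs at the low end.

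Marker lists of the cells a whole ulna can hold served as a check of the tissue. The osteoblast and mesenchyme miRNAs were present, with miR-199a-3p at 5472 to 14441 CPM in ZDF and 2298 to 12367 CPM in WT bones and miR-214-3p, known to restrain bone formation, at 180 to 1158 CPM and 358 to 1170 CPM. None of the 6 tested passed the threshold with all 8 libraries (median log2FC −0.44, 1 value above 0 and 5 below). MiR-199a-5p, the other arm of the miR-199a hairpin, had a log2FC of −0.93 (FDR = 0.305), with every ZDF bone below every WT bone. Without both WT1 and WT2, in which miR-199a-3p was at 11187 and 12367 CPM against 2600 and 2298 CPM in WT3 and WT4, its log2FC went from 0.20 to 1.73 (FDR = 0.000327). MiR-214-3p went from −0.43 to −0.89 (FDR = 0.126), and to −1.72 (FDR = 0.0511) with depth as covariate and −1.25 (FDR = 0.146) without ZDF4. The 4 cartilage miRNAs, led by miR-140-3p, all had negative values with a median of −0.57 and none passed. No call was made with all 8 libraries among erythrocyte (4 tested, median −0.40), endothelial (5 tested, median 0.28), smooth muscle (4 tested, median −0.23), neuronal (2 tested, median 0.56), epithelial (2 tested, median 0.29), liver (1 tested, 0.30) and pancreatic (1 tested, 0.18) miRNAs. Without both WT1 and WT2, 1 cartilage, 3 erythrocyte (1 upregulated, 2 downregulated), 1 smooth muscle, 1 liver and 1 neuronal miRNA passed. The 2 downregulated erythrocyte miRNAs were miR-451-5p (−0.91, FDR = 0.0668) and miR-144-3p (−1.05, FDR = 0.0721). The smooth muscle miRNA was miR-145-5p (−0.92, FDR = 0.0668). MiR-144-3p (FDR = 0.194) and miR-145-5p (FDR = 0.194) passed with DESeq2 as well, and miR-144-3p without WT2 (−1.17, FDR = 0.177), WT4 (−1.27, FDR = 0.152) or ZDF4 (−1.86, FDR = 0.0212). The liver miRNA miR-122-5p was at 0 in 6 of the 8 libraries and at 3.20 CPM in ZDF4 and 10.2 CPM in WT3.

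Among families tied to bone, the osteoblast differentiation regulators held 2 upregulated miRNAs of 10 tested (median −0.01, 1 to 3 over 22 other settings), and these were miR-133a-3p and miR-206-3p of the muscle list. No bone resorption regulator passed (6 tested, median 0.06), although miR-31a-5p, known to act in osteoclasts, was at 134, 172, 100 and 165 CPM in ZDF and at 19.6, 55.1, 86.5 and 73.3 CPM in WT bones without overlap (log2FC 1.14, FDR = 0.328). MiR-31a-5p passed with DESeq2 (1.18, FDR = 0.194). There was no call among the miR-30 (10 tested, median −0.26), miR-15 and miR-16 (6, −0.23), miR-181 (6, 0.18), miR-26 (2, 0.42) and miR-103 and miR-107 (2, 0.31) families. Nor was there one in the miR-17-92 cluster and its paralogs (10, 0.18), the miR-23, miR-27 and miR-24 clusters (9, 0.15) or the miR-99, miR-100 and miR-125 families (5, −0.19). These counts changed without both WT1 and WT2, to 2 bone resorption regulators, 3 miRNAs of the miR-30 family (all upregulated), 3 of the miR-15 and miR-16 family (all downregulated), 4 of the miR-17-92 cluster and its paralogs, 3 of the miR-23, miR-27 and miR-24 clusters (all downregulated) and 1 of the miR-99, miR-100 and miR-125 families, while the miR-181, miR-26 and miR-103 and miR-107 families had none.

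Counting the miRNAs whose ZDF and WT values did not overlap, whatever the threshold, gave 25 of 261 (9.58%), 15 with ZDF above WT and 10 with ZDF below. Of the 14 miRNAs past the threshold, 7 were among them, each with an exact permutation p of 0.0286 (4 against 4). This test uses the values of each miRNA alone. For the other 7 calls the exact permutation p was 0.0571 (miR-142-3p, miR-29a-5p), 0.0857 (miR-382-5p), 0.114 (miR-206-3p, miR-487b-3p, miR-142-5p) or 0.2 (miR-3084a-3p). MiR-130a-3p, known for its role in blood vessels, was at 406, 391, 708 and 736 CPM in ZDF and at 921, 1129, 1674 and 889 CPM in WT bones (log2FC −1.04, FDR = 0.305). MiR-497-3p was at 11.7 to 41.3 CPM in ZDF and 58.8 to 91.6 CPM in WT bones (log2FC −1.44, FDR = 0.273). Both were below WT in every ZDF bone and missed the threshold with all 8 libraries. They passed without both WT1 and WT2 (−1.19 with FDR = 0.0284 for miR-130a-3p, −1.52 with FDR = 0.0668 for miR-497-3p), with DESeq2 (FDR = 0.0951 and 0.194), without WT2 (FDR = 0.198 for each) and without ZDF4 (FDR = 0.144 and 0.136), and miR-130a-3p also without WT4 (FDR = 0.196). The 5 most abundant miRNAs were miR-143-3p (log2FC −0.96, FDR = 0.220), miR-133a-3p, miR-26a-5p (0.44, FDR = 0.628), miR-30a-5p (−0.38, FDR = 0.697) and miR-101a-3p (−0.08, FDR = 0.953), of which miR-133a-3p passed the threshold. Without both WT1 and WT2, miR-143-3p was at 0.33 (FDR = 0.539), and miR-30a-5p (0.87, FDR = 0.0669) and miR-101a-3p (1.26, FDR = 0.00447) passed with the opposite sign. MiR-143-3p passed without ZDF4 (−0.92, FDR = 0.192), WT3 (−1.14, FDR = 0.168) or WT4 (−1.23, FDR = 0.0647).

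Arms of one hairpin can be compared within a library. Both arms were tested for 58 hairpins, and their log2FC had opposite signs in 24. The ratio of the arms did not overlap between genotypes in 6 of the 58. For comparison, the levels of 25 of all 261 tested miRNAs (9.58%) did not overlap. For the erythroid hairpin miR-144, the 5p arm had a log2FC of 1.04 (FDR = 0.311) and the 3p arm one of −1.15 (FDR = 0.273). The log2 ratio of its 5p to its 3p reads was 3.05, 1.92, 1.18 and −0.20 in ZDF1 to ZDF4 and −1.45, −1.49, −0.86 and −0.27 in WT1 to WT4. The highest WT ratio (WT4) was just under the lowest ZDF ratio (ZDF4).

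The placebo bones, 4 ZDF and 4 WT libraries that share none with the PTH comparison, give the genotype difference without the hormone. There, 29 of 231 tested miRNAs passed the threshold (12.6%). Of the 14 miRNAs of the PTH comparison, 8 had the same sign under placebo, and 3 were past the threshold in both: miR-98-5p (log2FC 1.10 under placebo, FDR = 0.104), miR-206-3p (1.16, FDR = 0.104) and miR-142-5p (−1.13, FDR = 0.143). Let-7i-5p was at 29082 to 64848 CPM in ZDF and 21979 to 36910 CPM in WT placebo bones and overlapped. MiR-133a-3p overlapped as well, at 70998 to 444337 CPM and 50977 to 416228 CPM (log2FC −0.20). MiR-1-3p (1.25) and miR-1b (1.23) passed under placebo and not in the main test under PTH. For neither was a difference between PTH and placebo shown by the interaction test described below (−0.17, FDR = 0.987 for miR-1-3p, and −0.80, FDR = 0.753 for miR-1b). CPM values of the placebo bones come from a scaling over all 16 bone libraries.

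Conversely, of the 29 miRNAs past the threshold under placebo, 22 had the same sign under PTH, 10 of the 11 upregulated and 12 of the 18 downregulated. Across 227 miRNAs tested in both, Pearson's r of the log2FC was 0.36 and Spearman's rho 0.38, a description across miRNAs that are not independent replicates. Every let-7 family member had a larger log2FC under PTH than under placebo, where the median was 0.09.

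Whether the genotype difference itself depended on PTH was tested by an interaction term over the 16 bone libraries. Of 264 miRNAs tested, 8 passed the threshold (3.03%), 7 with a larger log2FC under PTH and 1 with a smaller. Let-7g-5p differed by 2.09 (SE 0.65, FDR = 0.113), from −0.34 under placebo to 1.68 under PTH. Its mean was 2655 ± 1269 CPM (SD, n = 4) in ZDF PTH, 798 ± 180 CPM in WT PTH, 2045 ± 519 CPM in ZDF placebo and 2626 ± 1697 CPM in WT placebo bones, so that WT bones under PTH were the group apart. It stayed past the threshold in 18 of 24 other settings.

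MiR-150-5p, a lymphocyte miRNA, differed by 2.00 (FDR = 0.113), with means of 1472 ± 675 CPM in ZDF PTH, 755 ± 384 CPM in WT PTH, 1354 ± 612 CPM in ZDF placebo and 2741 ± 1235 CPM in WT placebo bones. MiR-455-3p, a cartilage miRNA, differed by 2.14 (FDR = 0.113), its log2FC being −2.36 under placebo and −0.22 under PTH. The WT placebo bones had the highest mean, at 882 ± 715 CPM, against 164 ± 215 CPM in ZDF placebo, 90.3 ± 38.8 CPM in ZDF PTH and 98.6 ± 45.9 CPM in WT PTH bones. The placebo groups were widely scattered and overlapped, at 65.8 to 1808 CPM in WT and 35.0 to 486 CPM in ZDF bones. MiR-196a-5p (2.96) and miR-3084a-3p (−3.33) were the other miRNAs that passed in both the PTH comparison and the interaction. MiR-326-3p, miR-92b-3p and miR-484 differed by 3.02, 2.54 and 2.16. In the PTH comparison the abundance filter left out miR-326-3p and miR-92b-3p, and miR-484 did not pass (FDR = 0.553). All but let-7g-5p and miR-150-5p were past the threshold in fewer than 10 other settings, and the number of interaction calls was 40 without WT placebo bone 1, 29 without ZDF placebo bone 2, 14 without WT4 and 1 to 4 without any other library except ZDF2 and ZDF3. For let-7i-5p (1.34, FDR = 0.438), miR-98-5p (0.79, FDR = 0.755) and miR-133a-3p (1.58, FDR = 0.272), a difference between PTH and placebo was not shown.

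**Figure D5:**
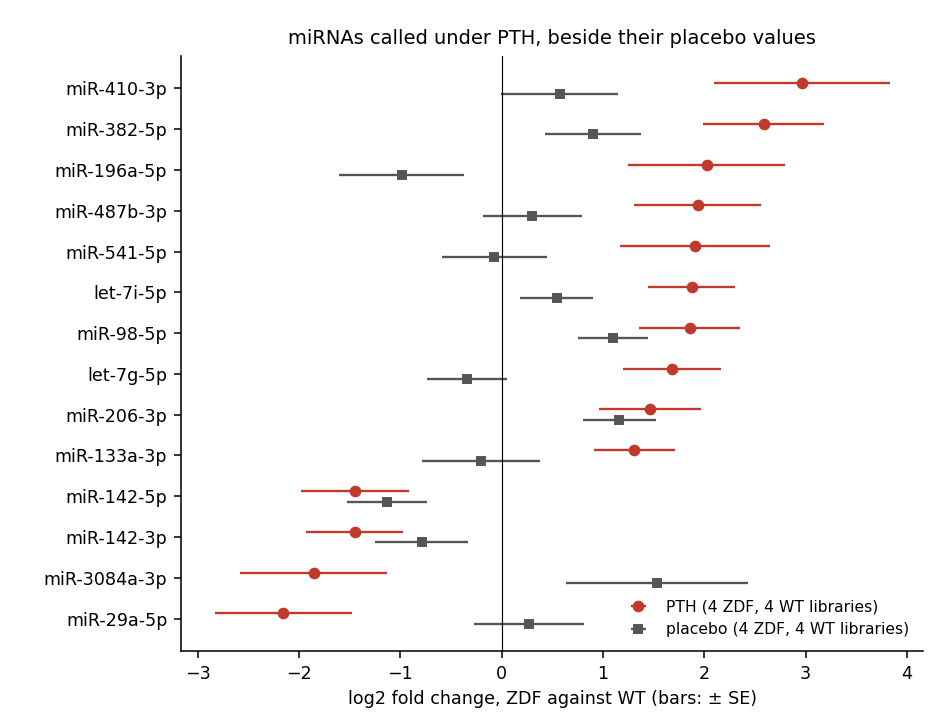
Log2 fold change of ZDF against WT bone (x axis, bars ± SE) of the 14 miRNAs past FDR < 0.2 under PTH (red circles), with the value of the same miRNA in placebo bones (gray squares), 4 ZDF and 4 WT libraries in each. MiR-206-3p and miR-142-5p lie close in both, and let-7g-5p, miR-133a-3p, miR-196a-5p, miR-541-5p, miR-3084a-3p and miR-29a-5p have opposite signs, with placebo values near 0 for miR-133a-3p (−0.20) and miR-541-5p (−0.07).

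In serum of PTH-treated rats, 5 ZDF and 5 WT libraries, 1 of 43 tested miRNAs passed the threshold (2.33%). It was miR-143-3p, upregulated in ZDF serum with a log2FC of 1.32 (FDR = 0.176), where the bone value was −0.96 (FDR = 0.220). No label ties a bone to a serum sample. The paper states that, apart from some PTH-treated ZDF bones, the bones came from rats that also gave serum. The serum values are therefore not independent of the bone values. Of the 14 bone miRNAs, 12 had a value in serum and 11 of these had the sign they had in bone. Only 3 met the abundance filter in serum, and none of them passed. That filter was a mean of 3836 CPM, against 21.0 CPM in the PTH bones. It left out let-7g-5p, at means of 1785 CPM in ZDF and 1238 CPM in WT serum. Some serum values were near 0, with means of 2.32 CPM in ZDF and 0 CPM in WT for miR-541-5p and 4.27 and 11.1 CPM for miR-29a-5p. The share of matching signs over all miRNAs was not counted.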

How the data were processed

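Small RNA libraries were made from ulna homogenates (miRNeasy extraction, RealSeq-Biofluids kit). The authors trimmed the reads with cutadapt, aligned them to rat genome and miRBase sequences (Bowtie, miRDeep2), allowing a mismatch, and deposited whole-number counts of reads per mature miRNA, not normalized. The deposited RPM column, scaled to all reads of a library, was used here for library totals alone. The authors' own tests used edgeR, and tool versions are not given here. Rows of spike-in controls were left out.

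Counts were analyzed with edgeR 4.0.16, limma 3.58.1 and R 4.3.3, by TMM normalization, quasi-likelihood test (legacy = TRUE, robust = FALSE) fitted to the groups being compared alone (all 4 bone groups for the interaction), miRNAs with at least 1 read, and independent filtering on mean CPM over 50 quantiles up to 0.95, which kept miRNAs from a mean of 21.0 CPM in the PTH bone comparison. The threshold was FDR < 0.2 (Benjamini-Hochberg). In each main fit the filter was set at the quantile that gave the most miRNAs past this threshold. The numbers tested and the FDR values therefore depend on that choice. With the stopping rule of DESeq2 for the filter, or with no independent filtering, 11 miRNAs passed in the PTH bone comparison. The prior degrees of freedom were infinite in the PTH bone comparison and the interaction, so all miRNAs shared the estimated spread there. In the placebo bone and serum comparisons the prior degrees of freedom were 16.3 and 132. All tests were two-sided. Exact permutation used log2(CPM + 1). Counts covered 548 miRNAs with a read in the 8 libraries, and no pair of these libraries agreed within counting noise (chi-square per degree of freedom at least 17.9).

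Named miRNAs were those past the threshold under PTH, the interaction calls, the 5 most abundant, defining members of 25 lists, and up to 3 higher and 3 lower without overlap with the largest change. Others were named after their values were seen. The members, lists and tests were chosen with earlier results of these data known. Alternatives were other scalings and filters, robust = TRUE, legacy = FALSE, DESeq2 1.42.0, FDR < 0.05, all 4 bone groups in one fit, thinning to 41627 reads, log2 depth as covariate, and each library left out. The fit without WT1 and WT2 was added after the depths were seen. MiRNA positions and sequences are those of RefSeq.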

Additional observations from a re-analysis of the deposited data

Results flagged for a closer look

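In 68 groups of 4 libraries, 1 library stood apart from the other 3 by Dixon's test at its 95% critical value in 5 cases, and chance gives this in about 1 in 20 groups. MiR-142-3p in WT bone was lowest in WT4, at 953 CPM, with the next at 2479 CPM. MiR-1-3p in WT bone was highest in WT2, at 9833 CPM, with the next at 1940 CPM. MiR-122-5p was at 3.20 CPM in ZDF4 (3 reads) and 10.2 CPM in WT3 (2 reads), and at 0 in the other libraries of each genotype. Where all other values are 0, Dixon's ratio is 1 for any remaining value, so the miR-122-5p cases were fixed in advance. The total of all reads was highest in WT4 among WT libraries, at 3903390, with the next at 2760740.

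The genotype difference under PTH differed from that under placebo, by the interaction test at FDR < 0.2 (edgeR, 16 bone libraries), for 8 miRNAs. The difference of the log2FC was 2.09 for let-7g-5p, 2.00 for miR-150-5p, 2.96 for miR-196a-5p, 2.14 for miR-455-3p, 3.02 for miR-326-3p, 2.54 for miR-92b-3p and 2.16 for miR-484, and −3.33 for miR-3084a-3p. Let-7g-5p passed in 18 of 24 alternatives and miR-150-5p in 14 of 24, the other 6 in 5 to 9.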

How the results depend on the processing

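Let-7i-5p, let-7g-5p, miR-98-5p and miR-133a-3p were past FDR < 0.2 under all 21 alternatives with that threshold. Each of the other 10 missed it, or was left out by the abundance filter, under at least 1. The 14 calls under PTH became 30 with DESeq2's size factors, 7 with filterByExpr, 9 with filterByExpr and independent filtering, 25 with DESeq2, 6 at FDR < 0.05, 27 after thinning, 75 with the depth covariate, 74 without WT1 and WT2, and 8 to 58 with 1 library left out. The 8 interaction calls became 2 with DESeq2's size factors, 2 with library totals, 0 without independent filtering (42 at unadjusted p < 0.05), 0 with filterByExpr (13) and 1 with independent filtering added, 4 with legacy = FALSE, 1 with DESeq2, 0 at FDR < 0.05 and 1 to 40 with 1 library left out. The 29 placebo calls became 0 without independent filtering (52 at unadjusted p < 0.05), 6 with filterByExpr, 2 at FDR < 0.05 and 7 to 108 with 1 library left out. The 1 serum call became 2 with DESeq2's size factors, 0 without independent filtering (22 at unadjusted p < 0.05), with filterByExpr (5), with independent filtering added to it, with DESeq2 (5) or at FDR < 0.05, and 0 to 12 with 1 library left out. The depth difference was 1.44 to 2.39 (log2) with 1 library left out. MiR-30a-5p (−0.38) turned to 1.11 with the depth covariate and 0.87 without WT1 and WT2, and miR-101a-3p (−0.08) to 1.49 and 1.26. The causes were not tested. No paired analysis was possible because the labels give the bones no replicate number. A miRNA with few WT reads cannot be measured closely at 41627 to 282285 reads.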
